A study of Mus musculus with 18 samples.

Results

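The digestive enzymes of the brush border were followed as a set of 9 genes, chosen by name and not by any measured value: Alpi, Sis, Lct, Treh, Mgam, Anpep, Dpp4, Mep1a and Mep1b. All 9 were found in the count table of 55487 genes, and all 9 were among the 15247 genes that passed the filter on low counts. RNA was sequenced from organoids of the small intestine of wild-type mice (genotype WT in the labels), cultures in which crypt cells grow into a closed epithelium with stem cells and differentiated cells and without nerves or connective tissue. The organoids came from female C57BL/6 mice per the methods. The groups were HCl, the vehicle of norepinephrine (n = 4), norepinephrine at 1 µM (n = 5), DMSO, the vehicle of UK 14,304 (n = 4), and UK 14,304 at 1 µM (n = 5), all for 4 days. Norepinephrine, the transmitter of sympathetic nerves, acts on all classes of adrenergic receptor, whereas UK 14,304 is an agonist of α2-adrenergic receptors. The labels number the samples 1 to 5 across the groups, and number 5 has no vehicle sample. They do not say what a number stands for, so a difference between numbers cannot be told apart from a difference in animal, culture or handling, and p-values measure only the spread between these samples.

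The brush border is the carpet of microvilli on the apical side of absorptive enterocytes, and its enzymes carry out the last steps of digestion. Disaccharidases (Sis, Mgam, Lct and Treh) split sugars into monosaccharides, peptidases (Anpep, Dpp4, Mep1a and Mep1b) trim peptides, and alkaline phosphatase (Alpi) removes phosphate groups from lipids, nucleotides and bacterial products. These genes are switched on as cells leave the crypt, and their levels vary along the length of the intestine. The transcription factor families HNF4, CDX and GATA are well known regulators of such genes in enterocytes.

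Libraries held 21.87 to 27.85 M counts on genes, and the 9 enzymes together took 0.947 to 1.22% of them. CPM are counts scaled to library size, with TMM factors in values of tested genes and without them in sums over a list. The epithelial markers Epcam, Cdh1, Krt8 and Krt18 summed to 4346 to 4812 CPM over the libraries. In contrast, 6 markers of fibroblasts, immune and endothelial cells summed to 7.63 to 12.0 CPM, most of it Vim. Col1a2 was at 0 in 16 of 18 libraries. The agonist libraries of replicate 4 stood apart from each other. Their deviations from their group means had a correlation of -0.212 across genes. The same correlation was 0.107 to 0.436 in replicates 1 to 3 and 0.0407 in replicate 5. This value does not say which of these libraries was unusual. Each correlated with the replicate 4 vehicles (HCl and DMSO), norepinephrine at 0.119 and 0.125 and UK 14,304 at 0.15 and 0.155. Leaving out norepinephrine replicate 4 raised the genes called for norepinephrine from 16 to 2529. Leaving out UK 14,304 replicate 4 raised them to 27. Calls for the agonists that changed without norepinephrine replicate 4 are therefore given both ways. A ribosomal RNA gene took 1.83 to 3.06% of counts in 7 libraries and 0.313 to 0.619% in the other 11. The 7 were 1 of 4 with HCl, 2 of 5 with norepinephrine, 3 of 4 with DMSO and 1 of 5 with UK 14,304. The share was thus uneven between UK 14,304 and its vehicle. With this share as a term, genes called for UK 14,304 fell from 186 to 78, and those called for norepinephrine stayed at 16.

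The upstream sequences of Alpi and its neighbour Akp3, of Lct and of Sis are shown, because Alpi and Lct were the members that differed most between replicate numbers, Akp3 is the closest relative of Alpi at appreciable level, and Sis was the most abundant member. Each run holds the 250 bases before the annotated start of the gene, 5′ to 3′ on the strand of the gene, from RefSeq on GRCm38.p6, and capitals mark the motifs searched.
Alpi chr1:87101607-87101856, minus strand: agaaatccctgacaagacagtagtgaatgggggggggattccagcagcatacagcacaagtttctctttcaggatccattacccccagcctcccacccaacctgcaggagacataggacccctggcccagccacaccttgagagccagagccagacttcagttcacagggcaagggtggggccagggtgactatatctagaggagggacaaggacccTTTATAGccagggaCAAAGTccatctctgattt
Akp3 chr1:87124704-87124953, plus strand: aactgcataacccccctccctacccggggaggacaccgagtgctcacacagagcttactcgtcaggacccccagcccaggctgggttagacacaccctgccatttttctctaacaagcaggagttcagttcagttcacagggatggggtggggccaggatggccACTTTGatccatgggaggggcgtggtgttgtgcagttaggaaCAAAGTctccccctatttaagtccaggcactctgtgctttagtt
Lct chr1:128328319-128328568, minus strand: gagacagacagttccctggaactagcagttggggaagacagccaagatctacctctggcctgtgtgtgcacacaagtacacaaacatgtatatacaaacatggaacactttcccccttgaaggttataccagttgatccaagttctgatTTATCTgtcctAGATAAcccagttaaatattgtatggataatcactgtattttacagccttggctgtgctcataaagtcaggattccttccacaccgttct
Sis chr3:72967864-72968113, minus strand: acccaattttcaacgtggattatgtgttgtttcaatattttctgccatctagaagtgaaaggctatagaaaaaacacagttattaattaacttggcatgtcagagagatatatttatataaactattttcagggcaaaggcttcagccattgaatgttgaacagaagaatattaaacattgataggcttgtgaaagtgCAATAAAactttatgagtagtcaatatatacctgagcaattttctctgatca
Motifs were searched on both strands in 300 bases, 250 before and 50 after the start. The letters of the CDX family were TTTATNG, with any base at N. For the factors of the GATA family the search used AGATAA, and for the HNF4 half-site it used CAAAGT. The half-site of the HNF1 factors was not searched. Of 32851 promoters of the same length, 10.9% held the CDX, 11.2% the GATA and 14.4% the HNF4 letters. Promoters were given for 8 members, and the exception was Mep1b. The CDX letters were in 4 of them (Alpi, Sis, Dpp4 and Mep1a), GATA in 3 (Lct, Mgam and Dpp4) and the HNF4 half-site in 3 (Alpi, Treh and Mep1a). The Anpep window held none of these letters. No match overlapped another. Alpi and Akp3 both held HNF4 letters, 1 match in Alpi and 2 in Akp3, whereas Lct held 2 GATA matches and no HNF4 match. These are matches of letters in a short window and not sites known to be bound.

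On a scale per length (TPM, computed from the counts and the exon length of each gene), the enzymes spanned more than an order of magnitude. Sis was highest at 2546 ± 422 TPM (SD, n = 18 libraries), place 33 of all tested genes by mean level. Alpi followed at 1598 ± 809.8, Mgam at 785 ± 110.1, Anpep at 594 ± 56.8 and Mep1b at 454 ± 46.4 TPM. Below these were Treh at 244 ± 20.9, Lct at 187 ± 46.9, Dpp4 at 106 ± 13.1 and Mep1a at 77.6 ± 9.30 TPM. The order was not fixed at 3 places. Sis exceeded Alpi in 14 of 18 libraries, Alpi exceeded Mgam in 14 of 18, and Treh exceeded Lct in 14 of 18, whereas each other neighbour in the order was higher in 18 of 18. The libraries in question were those of replicates 2 and 3, as the values by replicate show below. Alpi made up between 10.2 and 44.5% of the summed TPM of the 9 enzymes depending on the library, and Sis between 25.6 and 47.6%. The order of means was the same on TMM-scaled FPKM. Anpep, Dpp4 and Mep1b overlap genes with 399, 112 and 62 counts in all libraries together, and stretches of Sis, Mep1b and Dpp4 (up to 63, 93 and 233 bases, at 95% identity or more) recur in other genes.

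**Figure D1:**
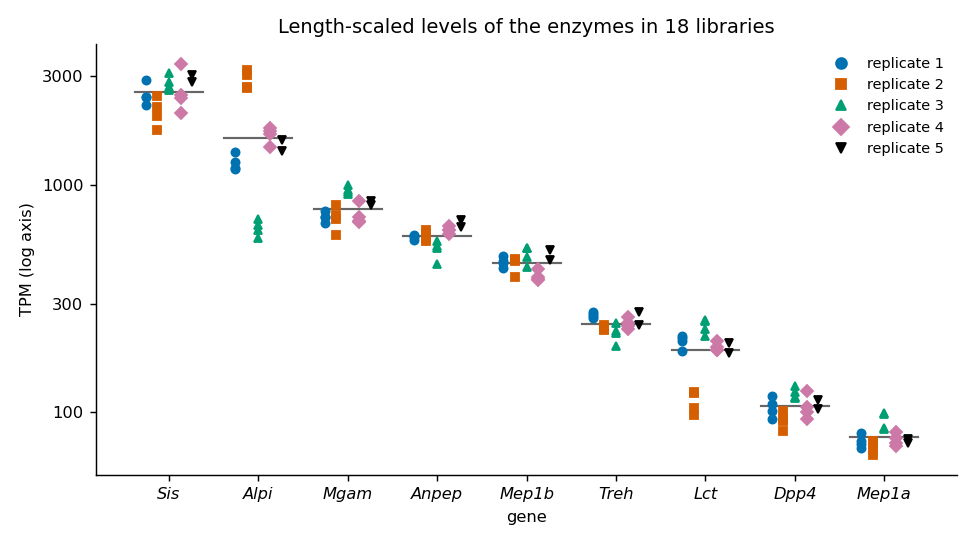
Level of each enzyme in TPM (log axis) in the 18 libraries, with each point 1 library and the grey line the mean. Sis (mean 2546 TPM) and Mep1a (77.6 TPM) mark the ends, and Alpi covers the widest range, 582 to 3187 TPM.

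The first question was whether 4 days of either agonist changed these enzymes. No member passed the test, which was edgeR's quasi-likelihood test with replicate number as a block and a threshold of 0.05 on p after Benjamini-Hochberg adjustment over 15247 genes. For norepinephrine 0 of 9 members were called, where 0.105% of all genes were. At an unadjusted p under 0.05 there were 0 of 9 members, beside 1280 of 15247 genes. For UK 14,304 0 of 9 were called, where 1.22% of all genes were. At an unadjusted p under 0.05 there were 3 of 9 (Alpi, Lct and Mep1b), beside 2256 of 15247 genes. DESeq2 called 0 members for norepinephrine and 1 (Mep1b) for UK 14,304. The median log2 fold change of the members was 0.033 for norepinephrine, beside -0.0077 for all genes tested, and 0.068 for UK 14,304, beside -0.0043. In neither comparison did any member have agonist and vehicle libraries that did not overlap, a pattern that 1.42% of all genes showed for norepinephrine and 3.51% for UK 14,304. In this bulk RNA, fewer enterocytes and less of an mRNA per enterocyte cannot be told apart.

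**Figure D2:**
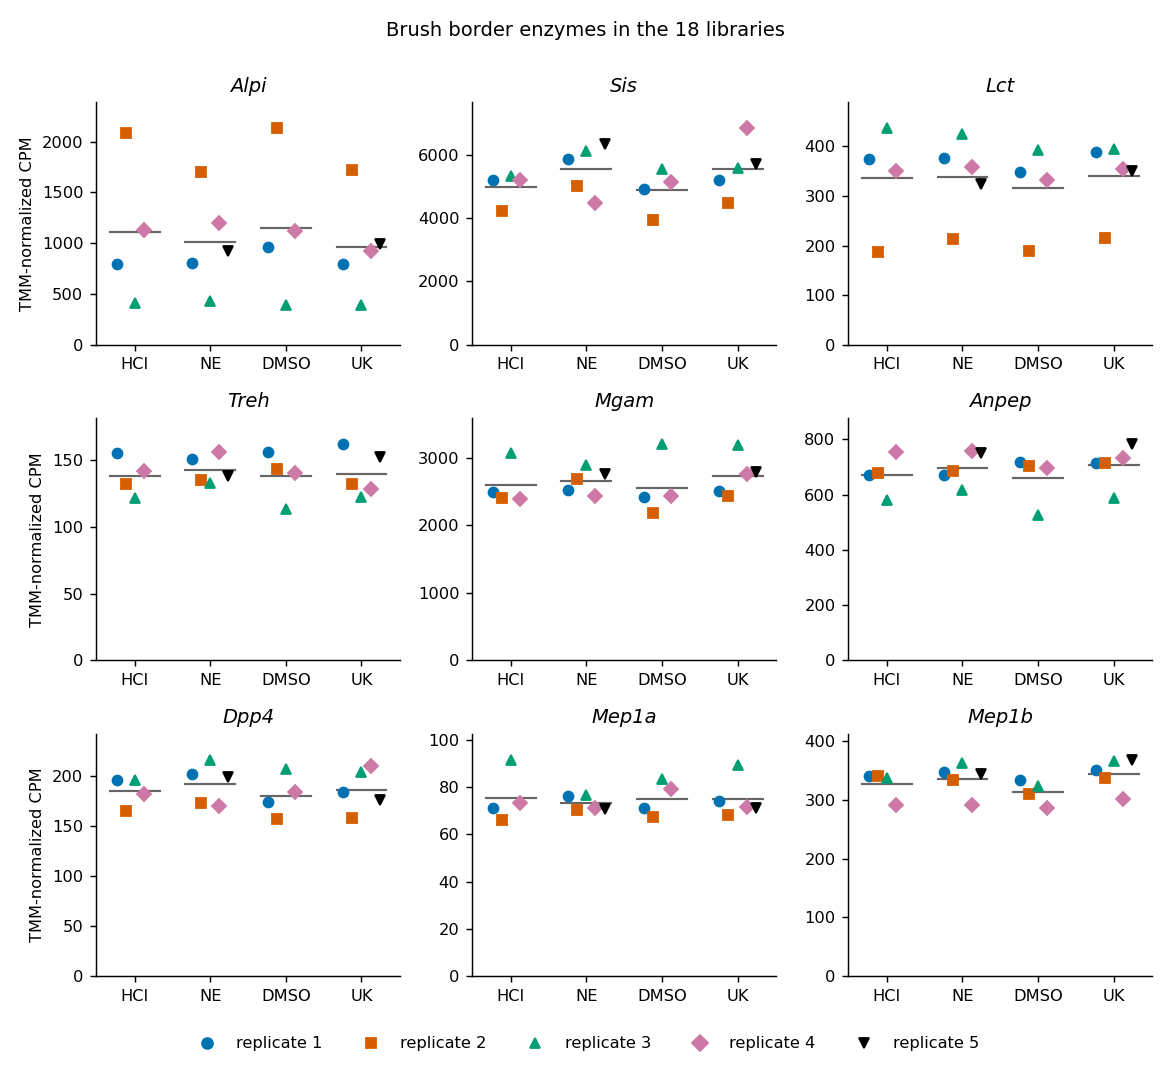
TMM-scaled CPM of the 9 enzymes in the 18 libraries by group, with each marker shape 1 replicate number and the grey line the group mean. The groups overlap for every enzyme, and for Alpi and Lct the libraries sort by replicate number, with replicate 2 highest for Alpi (1696 to 2131 CPM) and lowest for Lct (187 to 215 CPM).

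Among the disaccharidases, Sis (ENSMUSG00000027790; chr3:72888557-72967863, minus strand) encodes sucrase-isomaltase, which splits sucrose and the branch points of starch. Sis was at 5199, 4208, 5340 and 5215 CPM with HCl and 4909, 3923, 5533 and 5134 CPM with DMSO in replicates 1 to 4. The agonist libraries, replicates 1 to 5, were at 5878, 5003, 6105, 4475 and 6342 CPM with norepinephrine and 5207, 4490, 5589, 6834 and 5692 CPM with UK 14,304. The groups overlapped, with norepinephrine replicate 4 the lowest of its group and UK 14,304 replicate 4 the highest of all libraries. The log2 fold change was 0.13 ± 0.093 (SE; 95% interval -0.069 to 0.33; adjusted p = 0.653) for norepinephrine and 0.17 ± 0.093 (SE; 95% interval -0.033 to 0.36; adjusted p = 0.421) for UK 14,304. The first is a 1.09-fold difference. Norepinephrine was above HCl in 3 of 4 replicates, and UK 14,304 was above DMSO in 4 of 4, as for 14% of all genes. The call depended on replicate 4 and on the filter on low counts. With no such filter and all libraries kept, Sis was called for norepinephrine (0.14 ± 0.029, adjusted p = 0.00107) and for UK 14,304 (0.16 ± 0.029, adjusted p = 5.34e-06). That fit called 153 and 627 of 33375 genes, and for Sis its fold changes were close to those above while its standard errors were smaller. Without norepinephrine replicate 4, Sis rose by 0.26 ± 0.056 with norepinephrine (adjusted p = 0.00707) and by 0.18 ± 0.052 with UK 14,304 (adjusted p = 0.0398), in a fit that called 16.7% and 8.08% of all genes, and without replicate 4 in every group the values were 0.21 ± 0.035 (adjusted p = 0.000236) and 0.098 ± 0.035 (adjusted p = 0.127), where 15.1% and 3.83% were called. Without UK 14,304 replicate 4 the value for UK 14,304 was 0.046 ± 0.068 (adjusted p = 0.875), where 1.28% of genes were called.

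Mgam (ENSMUSG00000068587; chr6:40628831-40769123, plus strand) encodes maltase-glucoamylase, the partner of Sis in starch digestion. Mgam was at 2489, 2401, 3069 and 2393 CPM with HCl and 2410, 2179, 3198 and 2424 CPM with DMSO in replicates 1 to 4. With norepinephrine, replicates 1 to 5 were at 2516, 2682, 2896, 2436 and 2758 CPM, and with UK 14,304 they were at 2504, 2425, 3184, 2760 and 2786 CPM. All groups overlapped, and replicate 3 was the highest library in each group. Norepinephrine gave a log2 fold change of 0.035 ± 0.051 (SE; 95% interval -0.072 to 0.14; adjusted p = 0.815) and UK 14,304 one of 0.094 ± 0.051 (SE; 95% interval -0.012 to 0.20; adjusted p = 0.398).

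Lct (ENSMUSG00000026354; chr1:128284756-128328318, minus strand) encodes lactase, the enzyme of milk sugar, which is abundant in suckling animals. Lct was at 374, 187, 437 and 349.8 CPM with HCl and 349, 188, 393 and 333 CPM with DMSO in replicates 1 to 4. Replicates 1 to 5 were at 376, 212, 425, 359 and 325 CPM with norepinephrine and 389, 215, 394, 354 and 349.6 CPM with UK 14,304. The 4 groups overlapped almost fully, since replicate 2 lay between 187 and 215 CPM while the other replicates were between 325 and 437 CPM. The log2 fold change was 0.033 ± 0.043 (SE; 95% interval -0.058 to 0.12; adjusted p = 0.787) for norepinephrine. With UK 14,304 it was 0.12 ± 0.043 (SE; 95% interval 0.030 to 0.21; adjusted p = 0.206), a 1.09-fold difference, and UK 14,304 was above DMSO in 4 of 4 replicates, with a log2 ratio of 0.0021 in replicate 3 and 0.19 in replicate 2. Without norepinephrine replicate 4, which enters the shared estimate of spread, the UK 14,304 value was 0.13 ± 0.038 (adjusted p = 0.0392). It did not pass with the ribosomal RNA share as a term (0.12 ± 0.049, adjusted p = 0.554) or without UK 14,304 replicate 4 (0.13 ± 0.045, adjusted p = 0.247).

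Treh (ENSMUSG00000032098; chr9:44673233-44686305, plus strand) encodes trehalase, which splits the disaccharide of fungi and insects. Treh was at 155, 132, 122 and 142 CPM with HCl and 156, 144, 113 and 140.1 CPM with DMSO in replicates 1 to 4. The agonist libraries, replicates 1 to 5, were at 151, 135, 133, 156 and 138 CPM with norepinephrine and 162, 132, 122, 128 and 152 CPM with UK 14,304. The groups overlapped. On the log2 scale the fold change was 0.044 ± 0.057 (SE; 95% interval -0.074 to 0.16; adjusted p = 0.783) for norepinephrine and 0.0022 ± 0.057 (SE; 95% interval -0.12 to 0.12; adjusted p = 0.99) for UK 14,304, the smallest of any member. The end of Treh overlaps that of Phldb1 on the other strand, but only at positions 44686304 to 44686305. Reads were counted without strand, so reads at this very short overlap cannot be assigned to either gene.

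**Figure D3:**
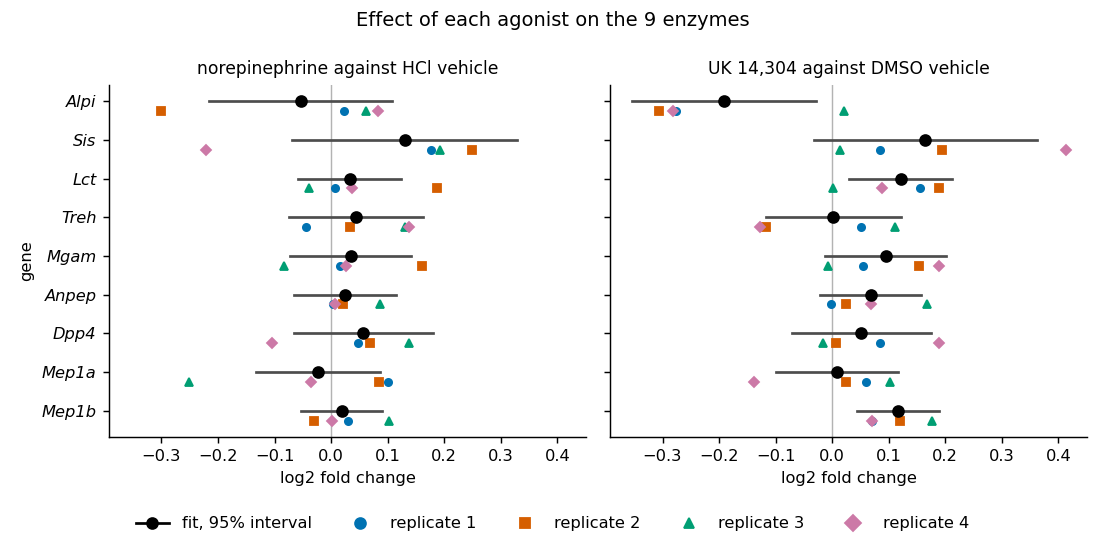
Log2 fold change of each enzyme with norepinephrine against HCl (left) and with UK 14,304 against DMSO (right), with black points and bars for the fitted value and its 95% interval and coloured markers for the log2 ratio of each replicate number. The fitted values lie between -0.054 and 0.13 on the left and between -0.19 and 0.17 on the right.

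Alpi (ENSMUSG00000079440; chr1:87098002-87101606, minus strand) encodes intestinal alkaline phosphatase. Alpi was at 789.5, 2088, 415 and 1134 CPM with HCl and 958, 2131, 386 and 1117 CPM with DMSO in replicates 1 to 4. With norepinephrine, replicates 1 to 5 were at 802, 1696, 433, 1202 and 925 CPM, and with UK 14,304 they were at 791, 1723, 391, 919 and 989 CPM. The agonist and vehicle libraries overlapped over nearly their whole range, with replicate 2 the highest and replicate 3 the lowest in each of the 4 groups. The log2 fold change was -0.054 ± 0.076 (SE; 95% interval -0.22 to 0.11; adjusted p = 0.807) for norepinephrine. For UK 14,304 it was -0.19 ± 0.077 (SE; 95% interval -0.35 to -0.028; adjusted p = 0.263), a fold of 0.876, and the log2 ratios were -0.28, -0.31, 0.021 and -0.28 in replicates 1 to 4. Alpi was thus the only member whose fitted value was below 0 for both agonists, and neither value passed the test. Its norepinephrine value was 0.029 without replicate 2 and 0.0057 after removal of the GC trend. When only UK 14,304 and DMSO libraries were fitted, the value was -0.20 ± 0.048 (adjusted p = 0.0416), where 525 of 14803 genes were called. With no filter on low counts it was -0.19 ± 0.037 (adjusted p = 3.72e-05), where 627 of 33375 were called. The UK 14,304 value did not pass with the ribosomal RNA share as a term (-0.16 ± 0.086, adjusted p = 0.681). Nor did it pass without UK 14,304 replicate 4 (-0.14 ± 0.081, adjusted p = 0.576).

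Among the peptidases, Anpep (ENSMUSG00000039062; chr7:79821803-79861059, minus strand) encodes aminopeptidase N, which removes amino acids from the free end of peptides. Anpep was at 671, 677, 579.8 and 755 CPM with HCl and 718, 704, 525 and 697 CPM with DMSO in replicates 1 to 4. Replicates 1 to 5 were at 673, 687, 616, 758 and 751 CPM with norepinephrine and 716, 716, 589.8, 731 and 783 CPM with UK 14,304. The groups overlapped, and replicate 3 was the lowest of every group. Norepinephrine gave a log2 fold change of 0.025 ± 0.043 (SE; 95% interval -0.065 to 0.11; adjusted p = 0.842), with norepinephrine above HCl in 4 of 4 replicates, as for 5.32% of all genes, and UK 14,304 gave 0.068 ± 0.043 (SE; 95% interval -0.022 to 0.16; adjusted p = 0.46).

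Dpp4 (ENSMUSG00000035000; chr2:62330073-62412231, minus strand) encodes dipeptidyl peptidase 4, which cuts pairs of amino acids from peptides, incretin hormones among them. Dpp4 was at 196, 166, 197 and 183 CPM with HCl and 174, 157, 207 and 185 CPM with DMSO in replicates 1 to 4. The agonist libraries, replicates 1 to 5, were at 202, 174, 216, 170.1 and 199.8 CPM with norepinephrine and 185, 158, 205, 210.3 and 176 CPM with UK 14,304. The groups overlapped, and as for Sis, replicate 4 was the lowest library with norepinephrine and the highest with UK 14,304. On the log2 scale the fold change was 0.057 ± 0.059 (SE; 95% interval -0.066 to 0.18; adjusted p = 0.735) for norepinephrine and 0.051 ± 0.058 (SE; 95% interval -0.071 to 0.17; adjusted p = 0.702) for UK 14,304. Without norepinephrine replicate 4, the norepinephrine value was 0.14 ± 0.045 (adjusted p = 0.0409), and without replicate 4 in all groups it was 0.095 ± 0.037 (adjusted p = 0.077). After removal of the trend on GC content the values were -0.0092 and -0.021.

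The meprins are zinc metalloproteases of the brush border. Mep1a (ENSMUSG00000023914; chr17:43474324-43502812, minus strand) encodes the alpha subunit, which can be shed into the lumen. Mep1a was at 71.1, 66.2, 91.4 and 73.1 CPM with HCl and 71.0, 67.2, 83.2 and 79.0 CPM with DMSO in replicates 1 to 4. With norepinephrine, replicates 1 to 5 were at 76.3, 70.2, 76.8, 71.3 and 70.7 CPM, and with UK 14,304 they were at 74.0, 68.4, 89.3, 71.7 and 71.1 CPM. Replicate 3 was the highest library of each group, and the groups overlapped. Norepinephrine gave a log2 fold change of -0.024 ± 0.052 (SE; 95% interval -0.13 to 0.086; adjusted p = 0.879) and UK 14,304 one of 0.0086 ± 0.052 (SE; 95% interval -0.100 to 0.12; adjusted p = 0.952).

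Mep1b (ENSMUSG00000024313) encodes the beta subunit of the meprins, which stays anchored in the membrane. Mep1b was at 340.0, 342, 338 and 292 CPM with HCl and 334, 309.9, 324 and 287 CPM with DMSO in replicates 1 to 4. Replicates 1 to 5 were at 347, 334, 363, 292 and 344 CPM with norepinephrine and 351, 337, 366, 301 and 368 CPM with UK 14,304. Replicate 4 was the lowest library in every group, and the ranges of agonist and vehicle overlapped. The log2 fold change was 0.018 ± 0.034 (SE; 95% interval -0.054 to 0.091; adjusted p = 0.856) for norepinephrine. UK 14,304 gave 0.12 ± 0.034 (SE; 95% interval 0.045 to 0.19; adjusted p = 0.123), with UK 14,304 above DMSO in 4 of 4 replicates by 0.071, 0.12, 0.18 and 0.070 on the log2 scale. Whether this value passed depended on the fit. DESeq2 gave an adjusted p of 0.0457, removal of the length trend gave 0.0441, the fit without norepinephrine replicate 4 gave 0.13 ± 0.031 (adjusted p = 0.0142), and the fit without replicate 4 gave 0.13 ± 0.033 (adjusted p = 0.0171). It did not pass with the ribosomal RNA share as a term (0.096, adjusted p = 0.497), without replicate 2 (0.12, adjusted p = 0.497), without replicate 3 (0.098, adjusted p = 0.435) or without UK 14,304 replicate 4 (0.12, adjusted p = 0.133).

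The effects of the 2 agonists were also set against each other. The difference between them (UK 14,304 against DMSO minus norepinephrine against HCl) ran from -0.14 ± 0.10 for Alpi (95% interval -0.36 to 0.086) to 0.098 ± 0.047 for Mep1b (95% interval -0.00096 to 0.20), on the log2 scale. No member passed in this comparison, where 0% of all genes were called with edgeR, 405 had an unadjusted p under 0.05, and DESeq2 called 1 gene. Without norepinephrine replicate 4 the difference ran from -0.085 ± 0.10 for Alpi to 0.087 ± 0.044 for Mep1b and 0 members passed, where 0.0066% of all genes (1 gene) were called, and for Sis and Dpp4 it was -0.077 and -0.071. The HCl and DMSO libraries differed by -0.048 to 0.079 over the members, again with 0% of all genes called, 277 at an unadjusted p under 0.05, and 0 by DESeq2.

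Some Paneth cell markers passed in the comparisons where no enzyme did. Of 5 Paneth markers, 2 fell with norepinephrine, where 0.105% of all genes were called (Lyz1, a lysozyme, by 0.37 and the defensin Defa22 by 0.69 on the log2 scale; adjusted p = 0.0019 and 0.0062) and 3 fell with UK 14,304 (these and Ang4), where 1.22% were called. The summed Paneth list ranged from 2306 to 3557 CPM with HCl, 1898 to 2694 with norepinephrine, 2151 to 3463 with DMSO and 1943 to 2973 with UK 14,304. Of 4 goblet markers, 0 passed with norepinephrine and 1 (Agr2) fell with UK 14,304, by 0.16 on the log2 scale (adjusted p = 0.0324), and the list summed to 853 to 1186, 762 to 1106, 891 to 1121 and 851 to 1075 CPM in the same order of groups. None of the 6 stem, 4 enterocyte, 5 enteroendocrine or 2 tested tuft markers passed in either comparison in this fit. Without norepinephrine replicate 4, where 16.7% and 8.08% of all genes were called for norepinephrine and UK 14,304, 5 of 5 Paneth and 2 of 4 goblet markers (Agr2 and Tff3) fell with each agonist. The stem marker Slc12a2 then rose by 0.24 with norepinephrine and 0.20 with UK 14,304 on the log2 scale, and 1 enterocyte marker fell with each (Apoa1 at -0.14 and Apoa4 at -0.28). Of the 4 general epithelial markers, Krt18 and Krt8 fell with norepinephrine (-0.14 and -0.12), and 0 enteroendocrine or tuft markers passed. Whether the mix of cells bears on the enzyme values was not tested.

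Other genes of the brush border were taken from lists of hydrolases and lipases (14 genes, 13 tested), microvillus proteins (13 genes) and enterocyte transcription factors (14 genes), and 0 of each list passed with norepinephrine or with UK 14,304. The largest values among the hydrolases were those of Akp3, a second intestinal alkaline phosphatase, at -0.79 ± 0.21 (adjusted p = 0.115) for UK 14,304 and -0.059 ± 0.21 (adjusted p = 0.93) for norepinephrine, and Plb1, a phospholipase, at -0.34 ± 0.25 (adjusted p = 0.656) for norepinephrine. Akp3 was lower with UK 14,304 in 4 of 4 replicates, as 15.5% of all genes were, and without norepinephrine replicate 4 the value was -0.82 ± 0.18 (adjusted p = 0.0279). Espn, which bundles actin in microvilli, was at -0.19 ± 0.066 (adjusted p = 0.196) and the scaffold gene Slc9a3r1 at -0.094 ± 0.046 (adjusted p = 0.348) for UK 14,304. Among the transcription factors with UK 14,304, Klf4 and Elf3 were at -0.18 ± 0.072 (adjusted p = 0.243) and -0.14 ± 0.055 (adjusted p = 0.258). The 5 villus tip genes and 2 ileal bile acid genes also gave no call. The largest of these values were 0.65 ± 0.27 for Nt5e with norepinephrine (adjusted p = 0.568) and -0.32 ± 0.12 for Slc28a2 with UK 14,304 (adjusted p = 0.238), while Slc10a2 was at -0.58 ± 0.23 with norepinephrine (adjusted p = 0.568) and Fabp6 at -0.51 ± 0.50 with UK 14,304 (adjusted p = 0.659). Of the genes of the proximal small intestine, Onecut2 was at 0.23 ± 0.10 (adjusted p = 0.584) with norepinephrine and Gata4 at -0.025 ± 0.054 (adjusted p = 0.877). Norepinephrine replicate 4 also decided calls in these lists. Without it, norepinephrine gave calls for 4 hydrolases, among which Mme (0.34) and Enpep (0.15) rose and Ggt1 (-0.16) fell, for 6 microvillus genes, which all fell (Espn, Slc9a3r1, Cdhr2, Myo7b, Cdhr5 and Vil1, with values from -0.19 to -0.099), for 4 transcription factors (among them Hnf4g rose and Klf4 and Elf3 fell) and for Onecut2, which rose by 0.34, in a fit that called 16.7% of all genes. For UK 14,304, removing that library, which is not in the contrast but shares its replicate number and the estimate of spread, gave calls for 5 hydrolases (among them Mme at 0.28 and Enpep at 0.20 rose, Ggt1 at -0.20 and Akp3 fell), for Espn (-0.19), Elf3 (-0.14) and Apoa4 (-0.28), which fell, and for Klf5 (0.13), which rose, where 8.08% of all genes were called.

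Larger differences lay between the replicate numbers. Of the 9 members, 8 differed between replicate numbers at an adjusted p under 0.05 in the same edgeR fit, where 13.8% of all genes did, and the exception was Sis (adjusted p = 0.0835). The count was 9 without norepinephrine replicate 4, where 23.6% of genes were called, 6 without replicate 2 (5.29%) and 3 without replicate 3 (3.56%). Alpi and Lct were called in each of 32 alternative fits, whereas Sis was called in 7 of them.

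Alpi spanned the widest range. It was at 1696 to 2131 CPM in the 4 libraries of replicate 2 and at 386 to 433 CPM in those of replicate 3, while replicates 1, 4 and 5 lay at 789.5 to 958, 919 to 1202 and 925 to 989 CPM. The libraries of replicates 2 and 3 overlapped with no other replicate. The fitted difference between replicates 2 and 3 was 2.23 ± 0.082 on the log2 scale, a 4.68-fold difference (adjusted p for any difference between numbers 2.51e-10).

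Lct had the reverse order of these replicates. It was at 187 to 215 CPM in replicate 2 and at 393 to 437 CPM in replicate 3, while replicates 1, 4 and 5 were between 325 and 389 CPM. Replicate 3 was 1.04 ± 0.045 above replicate 2 on the log2 scale, 2.06-fold (adjusted p = 1.13e-10). The ratio of Alpi to Lct, both in TPM, was 21.9 to 31 in replicate 2, 2.6 to 2.8 in replicate 3 and 5.57 to 9.18 in the others.

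The other members differed less. Mgam, Dpp4 and Mep1a were also highest in replicate 3 and lowest in replicate 2, by 0.35 (adjusted p = 0.000293), 0.34 (adjusted p = 0.00863) and 0.32 (adjusted p = 0.00248) on the log2 scale. Anpep and Treh were lowest in replicate 3, by 0.39 against replicate 5 (adjusted p = 5.86e-05) and 0.35 against replicate 1 (adjusted p = 0.00367). Mep1b was lowest in replicate 4, at 287 to 301 CPM, 0.25 below replicate 5 (adjusted p = 0.000237), and Sis was at 3923 to 5003 CPM in replicate 2 and 5692 to 6342 CPM in replicate 5. The enzymes thus did not rise and fall as 1 block. Of 36 pairs of members, 19 had a positive and 17 a negative correlation of log2 CPM over the 18 libraries, with a median of 0.073. The most negative pairs all held Alpi, with Lct at -0.865, Mep1a at -0.849, Dpp4 at -0.84 and Mgam at -0.823, and the most positive pair was Sis and Dpp4 at 0.872. These libraries share replicate numbers, and the correlations are given as description.

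**Figure D4:**
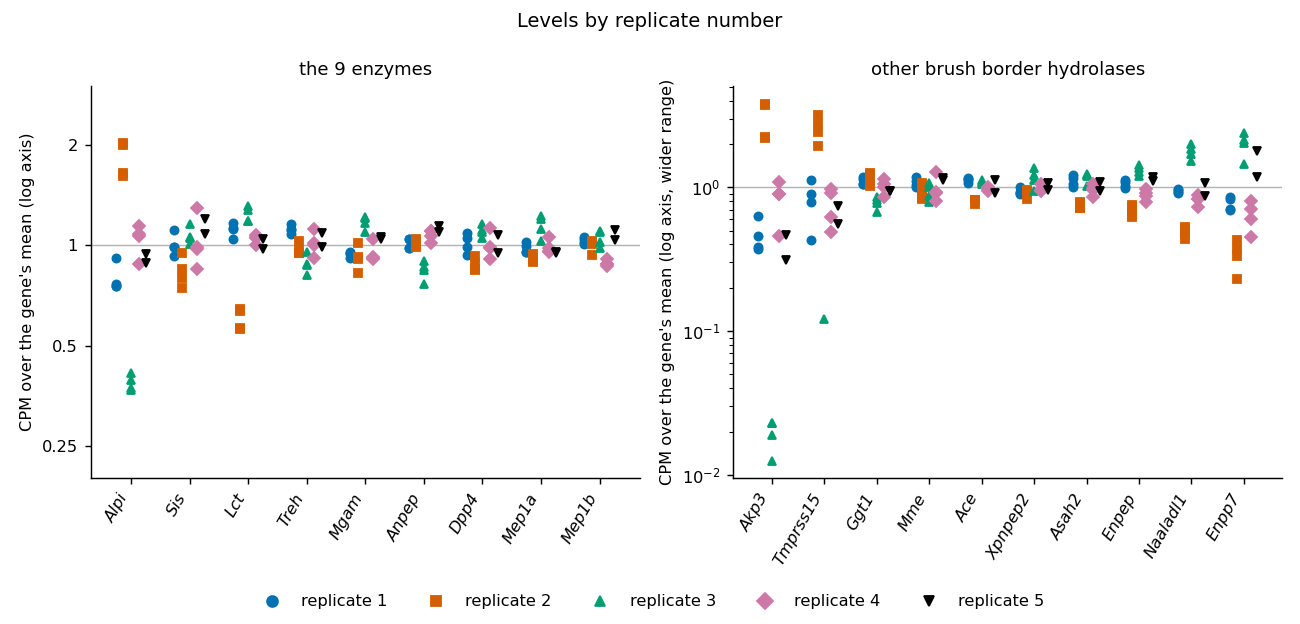
CPM of each gene in each library divided by the gene's mean over the 18 libraries (log axes), with marker shape and colour for replicate number, for the 9 enzymes (left) and 10 other brush border hydrolases (right, wider range; the 3 libraries of replicate 3 in which Tmprss15 was at 0 are not drawn). Alpi, Akp3 and Tmprss15 peak in replicate 2, and Lct, Enpp7 and Naaladl1 peak in replicate 3.

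Other hydrolases fell on both sides of this division, and 12 of the 13 tested differed between replicate numbers, where 13.8% of all genes did. Akp3 was at 431 to 750.2 CPM in replicate 2 and at 2.48 to 4.52 CPM in replicate 3, a 155-fold difference (adjusted p = 3.93e-08), with 61.6 to 215 CPM in the remaining replicates. Akp3 lies close to Alpi on chromosome 1 and its transcript is 81.9% identical to that of Alpi over 1584 bases. Identity was taken over whole alignments, so shorter near-identical stretches within this one were not searched for. Whether reads of 50 bases could be shared between Alpi and Akp3 was not tested. Tmprss15, or enteropeptidase, which activates trypsinogen, was at 2.61 to 4.26 CPM in replicate 2 and at 0 in 3 of the 4 libraries of replicate 3 (adjusted p = 8.77e-07). The glutathione hydrolase Ggt1 was also highest in replicate 2 and lowest in replicate 3.

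The opposite order was seen for the peptidases Naaladl1 and Enpep. Naaladl1 was at 74.3 to 89.4 CPM in replicate 2 and 257 to 342 CPM in replicate 3, a log2 difference of 1.86 (adjusted p = 1.06e-10), and Enpep, which cleaves angiotensin peptides, was at 163 to 197 and 313 to 373 CPM. Enpp7, a sphingomyelinase, differed by 2.56 on the log2 scale, and Asah2 and Xpnpep2 by 0.64 and 0.34. Ace was highest in replicate 1 and lowest in replicate 2, with a difference of 0.49. Plb1 was highest in replicate 5. Alppl2 was highest there by the fitted values only, since its mean was 1.54 CPM in replicate 5 and 1.57 CPM in replicate 2. Mme, or neprilysin, was the tested hydrolase that did not pass (0.22; adjusted p = 0.405), and Folh1 was at 0 counts in 18 of 18 libraries.

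**Figure D5:**
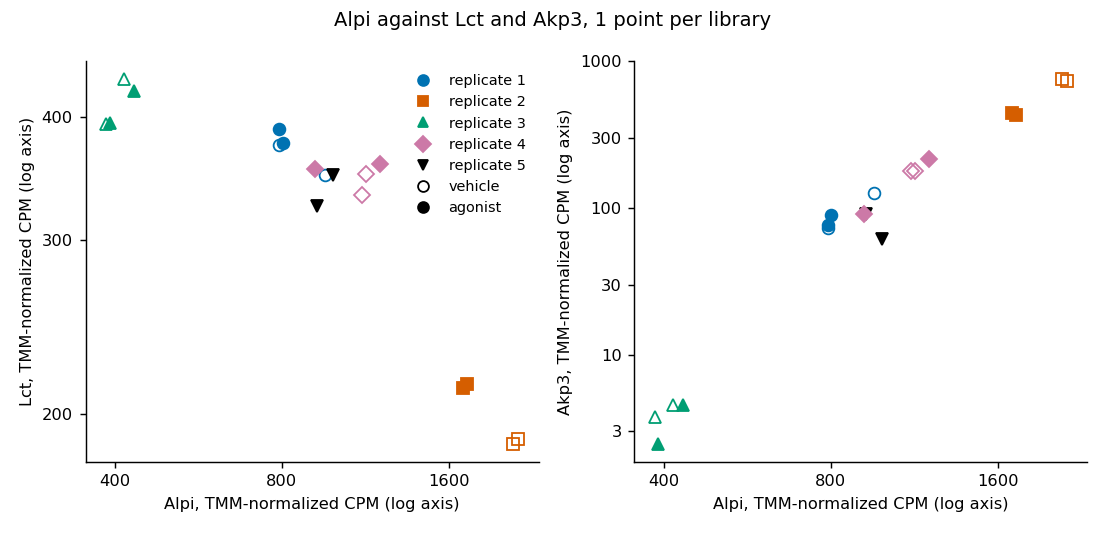
CPM of Lct (left) and of Akp3 (right) against CPM of Alpi in each library (log axes), with open markers for vehicle and filled markers for agonist. The 4 libraries of replicate 2 lie at high Alpi, low Lct and high Akp3, and those of replicate 3 at the other end.

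Across the 18 libraries, log2 CPM of Alpi correlated with that of Akp3 at 0.978 and of Tmprss15 at 0.943, and with that of Naaladl1 at -0.965 and of Enpep at -0.934. Among markers of position along the gut, Onecut2 and Gata4, which mark the proximal small intestine, correlated with Alpi at 0.912 and 0.891. Onecut2 was 1.43 higher in replicate 2 than in replicate 3 on the log2 scale and Gata4 0.40 higher. The ileal genes Fabp6 and Slc10a2 together summed to 1.91 to 20.4 CPM, and correlated with Alpi at -0.093 and -0.124. Of the villus tip genes, 5 of 5 differed between replicate numbers (13.8% of all genes did), and Ada, an adenosine deaminase, correlated with Lct at -0.919 and with Alpi at 0.854. Markers of other cells moved with the replicate number too. Of 5 Paneth markers all were lowest in replicate 2, where the list summed to 1898 to 2306 CPM against 2692 to 3463 CPM in replicate 3. Stem cell markers summed to 3800 to 4823 CPM in replicate 2 and 5624 to 7041 CPM in replicate 3, enterocyte markers (Alpi among them) to 8912 to 10306 and 6179 to 7256 CPM, and goblet markers to 1075 to 1186 and 762 to 940.0 CPM. Most of the stem sum was Olfm4, with means of 2835 and 4458 CPM. Axin2, Ascl2 and Slc12a2 were also higher in replicate 3, whereas Lgr5 and Gkn3 were lower there, by 0.14 and 0.31 on the log2 scale. Among the goblet markers, Agr2 was slightly higher in replicate 3 and Muc2, Clca1 and Tff3 were lower. Of these lists, 5 of 6 stem, 5 of 5 Paneth, 4 of 4 enterocyte, 2 of 4 goblet and 3 of 5 enteroendocrine markers passed between replicate numbers with edgeR, beside 0 of 4 general epithelial and 0 of 2 tested tuft markers and 13.8% of all genes. Without norepinephrine replicate 4, where 23.6% of genes were called, these counts were 5, 5, 4, 3 and 3, with 2 epithelial and 2 tuft markers. The part of position along the gut, of cell mix or of handling in these differences was not tested.

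The genes whose pattern was most like the mean of the 9 members, each centred on its own mean log2 CPM, were found over the 18 libraries. This mean ran only from -0.109 in DMSO replicate 3 to 0.0859 in UK 14,304 replicate 5. The members did not move together (median pair correlation 0.073), so likeness to their mean is not likeness to each member. The 5 with the highest Pearson correlation were Cobl (0.88), Bco2 (0.872), Mylk (0.868), Ces1f (0.867) and Clic5 (0.862). The 3 with the lowest were Limch1 (-0.844, with only 7 to 68 counts per library), Suox (-0.844) and Atp2a3 (-0.839).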

How the data were processed

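RNA was measured in 18 samples of mouse organoids. The authors prepared mRNA libraries (KAPA mRNA HyperPrep), mapped 50 bp single reads with STAR 2.7.3 to GRCm38 and deposited raw read counts per gene for 55487 genes, counted over exons. Subread 1.6.4 is named in the methods, and featureCounts 2.0.1 with Ensembl 102 per the file headers. The counts were not normalized. A symbol was found for 55141 gene identifiers, and 0 per-sample columns were left unused.

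The tests used edgeR 4.0.16 with limma 3.58.1 in R 4.3.3: TMM scaling, filterByExpr by group, and a robust quasi-likelihood fit of the 4 groups with replicate number as a block over all 18 samples, with Benjamini-Hochberg adjustment over 15247 genes. Same-numbered samples deviated together (correlations 0.119 to 0.431 for norepinephrine and HCl, 0.155 to 0.52 for UK 14,304 and DMSO), so the numbers, which come from the sample labels, were taken to pair them. CPM are TMM-scaled. TPM were computed from counts and the exon length in the table. The script was tested on simulated counts. No 2 samples of the same group agreed within sampling noise, and samples of different groups were not compared in this way.

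The enzymes and the other lists were chosen with earlier results of these data known. The genes named are the 9 enzymes, every called member of another list, the 2 of each list with the largest log2 fold change, and the 5 most and 3 least correlated with the mean of the enzymes. Members left out of these are not reported here. Other genes were named after their values were seen. Alternatives were DESeq2 1.42.0, its size factors, other filters, no block, pooled or own vehicles, trends on length and GC content, the ribosomal RNA share, and leaving out each sample or number. Promoter sequences are from RefSeq.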

Additional observations from a re-analysis of the deposited data

Results flagged for a closer look

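Of 36 sets of libraries tested (9 enzymes in 4 groups), 6 held 1 library far from the rest by Dixon's criterion, where chance gives about 1 in 20. In the HCl group, Sis was lowest in replicate 2 at 4208 CPM (the others were at 5199 to 5340), Mgam was highest in replicate 3 at 3069 CPM (2393 to 2489), and Mep1b was lowest in replicate 4 at 292 CPM (338 to 341). In the DMSO group, Anpep was lowest in replicate 3 at 525 CPM (697 to 718). With UK 14,304, Lct was lowest in replicate 2 at 215 CPM (the others were between 350 and 394), and Mep1a was highest in replicate 3 at 89.3 CPM (68.4 to 74). For Sis, Mgam, Mep1b, Lct, Anpep and Mep1a alike, the same replicate number was also at that end in the vehicle groups not named here.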

How the results depend on the processing

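The pairing by replicate number was part of the fit. Without the replicate block the test called 0 genes for norepinephrine and 6 for UK 14,304, with 0 enzymes in both, and the block changed no call of an enzyme by itself. The Mep1a value for UK 14,304 was -0.00461 without it. Enzymes called for norepinephrine were 1 with no filter on low counts, and for UK 14,304 they were 2 with no filter, 2 after removal of the GC trend (Lct at 0.159 and Anpep at 0.116), and 1 each with DESeq2, with UK 14,304 and DMSO libraries alone, and after removal of the length trend. Hydrolases called were 1 for norepinephrine with no filter, and for UK 14,304 they were 4 with no filter, 4 with its own vehicle alone, 4 after GC removal, 2 with pooled vehicles and 1 with DESeq2. For UK 14,304 the microvillus list gave 1 call with pooled vehicles and 1 after GC removal, the transcription factors gave 1 with no filter and 1 with its own vehicle alone, and the villus tip genes gave 3 with no filter, 1 with DESeq2 and 1 with pooled vehicles. For norepinephrine the villus tip genes gave 1 with no filter. Between replicate numbers, microvillus calls were 8 with no filter and 9 after GC removal, and transcription factor calls were 8 in both.

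All genes called were 153, 627, 24 and 17 with no filter (norepinephrine, UK 14,304, the difference between agonists and the vehicles), 29 and 264 with DESeq2 (first 2 comparisons), and 36, 624 and 1 after GC removal (first 3). For UK 14,304 they were 525 with its own vehicle alone, 742 with pooled vehicles and 78 with the ribosomal RNA share as a term, and 3858 genes differed between replicate numbers after GC removal. Values that changed sign under another setting were all small. After GC removal they were 0.00565 for Alpi, -0.00918 for Dpp4 and -0.0153 for Mep1b with norepinephrine, and -0.0205 for Dpp4 and -0.00401 for Mep1a with UK 14,304. With the ribosomal RNA term, Sis was at -0.041 for the difference between agonists, Mep1a at -0.0148 with UK 14,304, and the vehicles differed by -0.0173 for Sis, 0.0138 for Treh and -0.0171 for Mep1a. With no filter, Treh was at -0.000126 with UK 14,304 and the vehicles differed by -0.00448 for Mep1a. Treh was at -0.0106 with UK 14,304 and its own vehicle alone, and Mgam was at -0.00312 with norepinephrine after removal of the length trend.

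Leaving out 1 library or 1 replicate number at a time gave 0 to 2 enzymes called for norepinephrine, 0 to 3 for UK 14,304 and 3 to 9 between replicate numbers. The highest counts came without norepinephrine replicate 4 and the lowest of the last without replicate 3. For norepinephrine the calls were 0 to 4 hydrolases, 0 to 7 microvillus proteins and 0 to 4 transcription factors. For UK 14,304 the calls were 0 to 5 hydrolases, 0 to 1 microvillus proteins, 0 to 2 transcription factors and 0 to 1 villus tip genes. Between replicate numbers the calls were 8 to 13 hydrolases, 1 to 10 microvillus proteins, 1 to 9 transcription factors and 2 to 5 villus tip genes. All genes called ranged from 4 to 2529, 23 to 1225 and 545 to 4459 in these comparisons, and from 0 to 12 for the difference between agonists. The log2 values that changed sign when samples were left out ranged with norepinephrine from -0.106 to 0.0294 for Alpi, -0.00815 to 0.0775 for Lct, -0.0202 to 0.0795 for Mgam, -0.00115 to 0.0561 for Anpep and -0.0547 to 0.0551 for Mep1a. With UK 14,304 they ranged from -0.0341 to 0.0499 for Treh, -0.0194 to 0.0844 for Dpp4 and -0.0136 to 0.0593 for Mep1a. For the difference between agonists they ranged from -0.112 to 0.0888 for Sis, -0.0906 to 0.0108 for Treh, -0.0772 to 0.0341 for Dpp4 and -0.0688 to 0.0781 for Mep1a. Between the vehicles they ranged from -0.112 to 0.0284 for Alpi, -0.0456 to 0.0372 for Treh, -0.0196 to 0.0714 for Mgam, -0.0171 to 0.0644 for Anpep, -0.00685 to 0.0733 for Dpp4 and -0.0479 to 0.0469 for Mep1a.

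Of 828 enzyme values with samples left out, 760 kept their direction and side of the threshold, and of 324 under the other alternatives, 301 did. The cause of these changes was not tested. The unfiltered fit tested 33375 genes and gave smaller standard errors for Alpi and Sis (0.037 and 0.029). Depth did not limit the enzymes (at least 1449 counts per library), whereas Tmprss15, Alppl2 and Plb1 had few counts.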

Other observations

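The replicate numbers also separated structural and regulatory genes of the enterocyte. These had no call for either agonist in the main edgeR fit, but some were called under other settings, such as without norepinephrine replicate 4. Of 13 microvillus genes, 5 differed between numbers, and of 14 enterocyte transcription factors, 5 did, where 13.8% of all genes were called. Pdzk1, a scaffold of apical transporters, was at 8.35 to 10.3 CPM in replicate 2 and 17.6 to 20.4 CPM in replicate 3, a log2 difference of 1.07 ± 0.087 (adjusted p = 8.7e-07, edgeR), the same order as Lct. The cadherins Cdhr2 and Cdhr5, which link neighbouring microvilli, and the membrane linker Ezr were highest in replicate 2 and lowest in replicate 3, by 0.44, 0.23 and 0.26, the same order as Alpi, and so was the scaffold gene Slc9a3r1, by 0.26. The villus tip genes Ada, Nt5e, Slc28a2 and Apoa4 had this order too, by 1.3, 1.28, 1.27 and 0.76 on the log2 scale, while Krt20 was 0.16 higher in replicate 5 than in replicate 3.

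Among the transcription factors, Prdm1, a repressor linked to the fetal and suckling programme of the gut, was 1.08 ± 0.12 higher in replicate 2 than in replicate 3 on the log2 scale (adjusted p = 5.49e-05), from 2.56 to 6.32 CPM over these libraries. Klf4 differed by 0.55 and Gata4 by 0.40 in the same order. Creb3l3, a factor of lipid metabolism, and Gata6 were also lowest in replicate 3, by 0.35 against replicate 1 and 0.21 against replicate 4. Hnf4a, Cdx1 and Cdx2 did not pass (adjusted p = 0.923, 0.161 and 0.13), and Hnf4a stayed between 1435 and 1548 CPM in all 18 libraries.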
